A study of Homo sapiens with 14 samples.

Results

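A set of 10 genes known as targets of the transcription factor NF-kB, among them 3 chemokines, were followed in the ovarian carcinoma cell line OVCAR-3 and in sublines of it that had become resistant to PHA-533533, an inhibitor of the cell cycle kinase CDK2. They were chosen by name, with earlier results of these data known. Of these 10, 9 had 1 row each among 18398 array genes: TNFAIP2, TNFAIP3, ICAM1, NFKBIA, NFKB2, RELB, CXCL1, CXCL8 (formerly IL8) and CCL20. Signals of BIRC3 are not analysed here. RNA levels came from 14 Affymetrix whole-transcript arrays in 3 groups. The sublines were derived independently. The 5 selected arrays, 1 for each of the sublines R1, R3, R5, R6 and R7, were from resistant cells at passage 5 in 4 µM PHA-533533. The 5 stable arrays came from those sublines at passage 10 or later in 0 µM inhibitor. The 4 parental arrays were of the line from which the sublines were derived, in medium without inhibitor. All values are log2 signals as the authors deposited them, and the number of arrays limits their precision. Inhibitor and passage changed together between selected and stable cells and cannot be told apart. Each subline gave 1 array in each state. Whether the 4 parental replicates were grown as separate cultures is not stated, and the p-values here rest on a spread between samples that may be technical. In RNA from a whole culture, fewer cells expressing a gene and less RNA per cell cannot be told apart.

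NF-kB is a family of dimers built from RELA, REL, RELB and the processed products of NFKB1 and NFKB2. In resting epithelial cells the dimers are held in the cytoplasm by inhibitor proteins of the IkB family, and signals such as tumour necrosis factor or interleukin-1 lead to the destruction of those inhibitors. The freed dimers then switch on genes of adhesion, chemokine release and cell survival, and also the genes of their own inhibitors, which closes a feedback loop. Ovarian carcinoma cells are known to secrete the neutrophil chemokines that this pathway controls.

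The letters that NF-kB dimers read are short, and they are shown here for some of the members whose promoters carry them. RefSeq (GRCh38.p14) promoter sequences, which run from 250 bases before to 50 bases after a gene's start, covered 9 of the 10 genes with 11 starts, NFKB2 having 3; RELB was not matched. The motif GGAANTTCC, which reads alike on both strands, was found at 4 of the 11 starts, those of ICAM1, NFKBIA, CXCL1 and CXCL8, and in 0.965% of all 35116 promoters. The longer kappaB decamer consensus, searched on both strands, was found at 7 of the 11 starts and in 11.3% of all promoters, and overlapped the shorter motif in CXCL1 and NFKBIA. At TNFAIP2 neither was found in the window. A match is a description of letters and not a bound site, and since the members were listed as NF-kB targets the matches are no independent finding. In the 60-base windows below, written 5′ to 3′ on the gene's own strand, capitals mark the bases of either motif.
ICAM1, chr19:10270909-10270968, plus strand: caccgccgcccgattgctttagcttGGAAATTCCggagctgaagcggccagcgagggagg
NFKBIA, chr14:35404796-35404855, minus strand: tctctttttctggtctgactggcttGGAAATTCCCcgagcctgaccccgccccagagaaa
CXCL1, chr4:73869289-73869348, plus strand: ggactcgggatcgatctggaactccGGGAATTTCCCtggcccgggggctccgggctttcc
CXCL8, chr4:73740453-73740512, plus strand: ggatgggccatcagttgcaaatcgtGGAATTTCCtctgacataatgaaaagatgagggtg
TNFAIP3, chr6:137867167-137867226, plus strand: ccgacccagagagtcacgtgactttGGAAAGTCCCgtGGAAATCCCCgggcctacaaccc
CCL20, chr2:227813738-227813797, plus strand: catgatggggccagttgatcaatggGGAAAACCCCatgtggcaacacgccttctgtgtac
Of the members shown, TNFAIP3 and CCL20 carried the longer consensus only, TNFAIP3 in 2 copies. Windows are not shown for BIRC3, with 2 matches to the longer consensus, or for NFKB2, whose starts held 0, 3 and 2. Neither BIRC3 nor NFKB2 carried the shorter motif. The members with such letters did not all go the same way in resistant cells, as the values that follow show.

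As a check of the label, all 12 epithelial and serous ovarian marker genes, among them EPCAM, KRT8 and PAX8, lay above 7.76. That mark is the 95th percentile of mean signal among 340 genes for olfactory receptors, seldom expressed outside the nose, and is used as a measure of background. Of the leukocyte, fibroblast and endothelial markers 3 of 11, 2 of 10 and 1 of 8 did. The mean of the leukocyte markers ran from 6.58 to 6.75 in selected, 6.54 to 6.83 in stable and 6.61 to 6.82 in parental arrays. The mean olfactory receptor signal ran from 6.06 to 6.60 in selected, 6.18 to 6.70 in stable and 6.16 to 6.71 in parental arrays. CCL20, with a mean of 5.79 over all arrays, lay under the background mark, and CXCL8 lay at it.

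Setting selected against parental cells asks how resistant cells in the inhibitor differ from those they came from. TNFAIP2 and ICAM1 were higher in selected cells, CXCL8 was lower, and the remaining 6 members were not called. These 3 of 9 members compare with 6.92% of all 18398 genes called in that comparison (limma, Benjamini-Hochberg adjusted over all genes, threshold 0.05). The members were chosen with earlier results of these data known, so their share is no test of them as a set. The 2 higher members stand beside 5.03% of all genes called higher, and the 1 lower member beside 1.89% called lower. An unadjusted p under 0.05 was reached by 5 of 9 members and 20.3% of all genes. In 2 of 9 members, and in 9.77% of all genes, the selected and parental arrays did not overlap. The median difference of the 9 members was -0.23 and that of all genes -0.013.

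**Figure D1:**
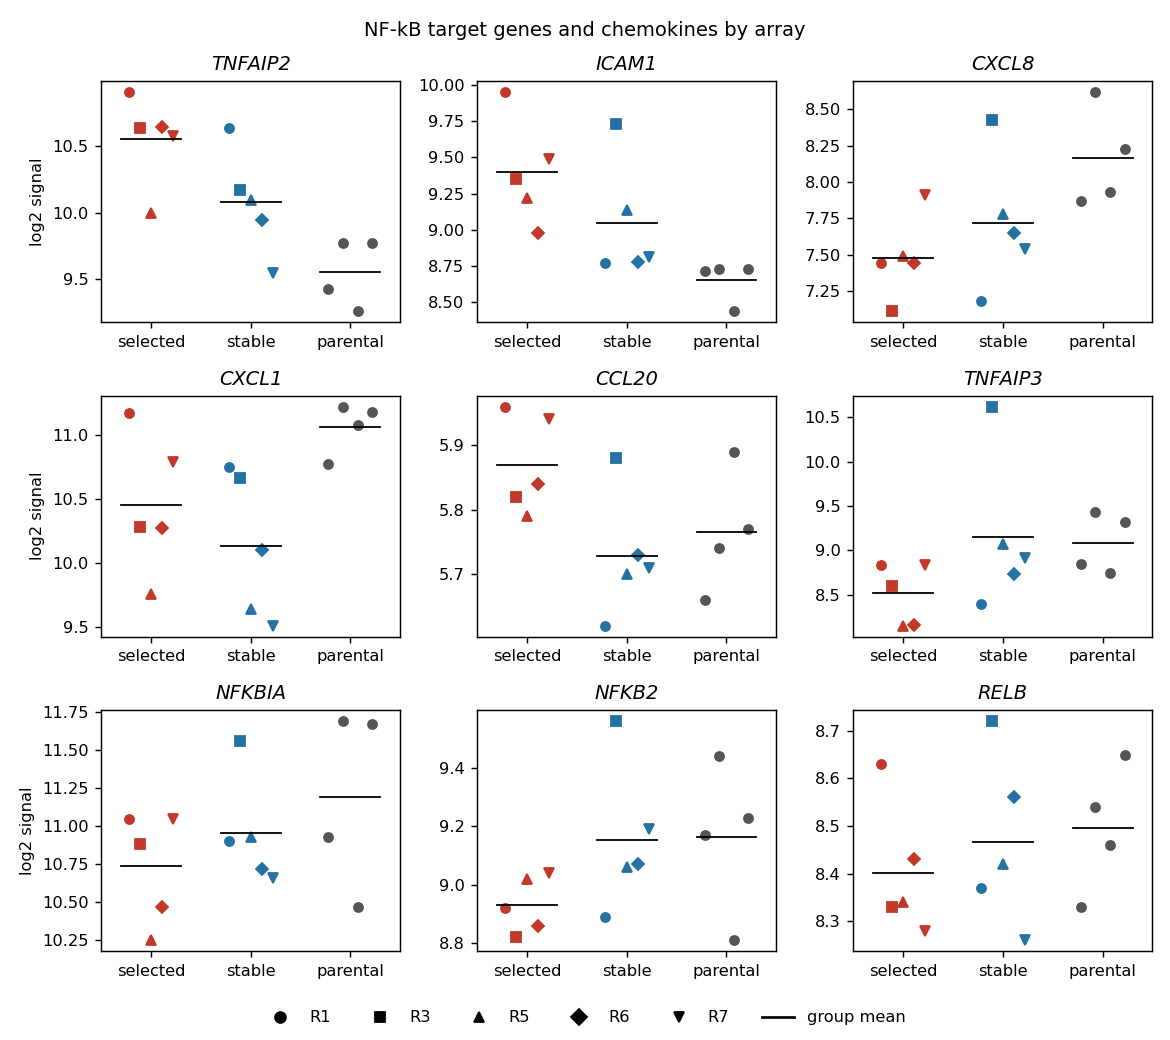
Log2 signal (vertical axis, a separate scale for each gene) of the 9 measured members in each of the 5 selected, 5 stable and 4 parental arrays. Each point is 1 array, its shape gives the subline, parental replicates are grey circles, and the line is the group mean. TNFAIP2, ICAM1 and CCL20 were highest on average in selected cells, and TNFAIP3 in stable cells. CXCL8, CXCL1, NFKBIA, NFKB2 and RELB were highest on average in parental cells. The stable R3 array tops its group in 7 genes.

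TNFAIP2, a gene induced by tumour necrosis factor whose product is linked to membrane protrusions, read 10.91, 10.64, 10.00, 10.65 and 10.58 in the selected arrays of R1, R3, R5, R6 and R7. In the stable arrays of those sublines it read 10.64, 10.17, 10.10, 9.95 and 9.55. The parental arrays, replicates 1 to 4, read 9.43, 9.77, 9.26 and 9.77. Every selected array thus lay above every parental one, as it did for 6.81% of all genes, while the stable array of R7 lay among the parental arrays. Selected cells averaged 10.56 ± 0.34 (SD, n = 5), against 9.56 ± 0.26 (SD, n = 4) for parental cells, a log2 difference of 0.998 (SE 0.17, limma adjusted p = 0.00631). This call was kept under each of the 18 alternative settings, with differences from 0.90 to 1.14. The 18 are not all distinct, since leaving out R7 and leaving out its selected array were the same fit.

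ICAM1 encodes an adhesion molecule that leukocytes bind through their integrins, and it is one of the classic NF-kB targets. Its signal was 9.95, 9.35, 9.22, 8.98 and 9.49 in the selected arrays, in the order R1, R3, R5, R6, R7. The stable arrays gave 8.77, 9.73, 9.14, 8.78 and 8.81, and the parental arrays 8.72, 8.73, 8.44 and 8.73. Both resistant groups lay wholly above the parental arrays, the stable ones narrowly in R1, R6 and R7. Stable arrays lay wholly above or below the parental arrays in 2 of 9 members, against 2.24% of all genes, and ICAM1 was the member above, against 0.826%. The selected mean of 9.40 ± 0.36 (SD, n = 5) was 0.74 above the parental mean of 8.65 ± 0.14 (SD, n = 4), with SE 0.16 and limma adjusted p = 0.0190. Leaving out parental replicate 3 (adjusted p = 0.0531) or 4 (0.0529), or the selected array of R7 (0.0568), ended the call, while the difference stayed between 0.60 and 0.84.

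CXCL8, the chemokine interleukin-8 that draws neutrophils, went the other way. It read 7.44, 7.11, 7.49, 7.44 and 7.91 in the selected arrays of R1, R3, R5, R6 and R7. Its stable values were 7.18, 8.43, 7.78, 7.65 and 7.54, and its parental values 7.87, 8.62, 7.93 and 8.23. Only the selected array of R7 reached into the parental range, just above the lowest parental array. Selected cells averaged 7.48 ± 0.28 (SD, n = 5), against 8.16 ± 0.34 (SD, n = 4) for parental cells, a difference of -0.69 (SE 0.17, limma adjusted p = 0.0349). The call stood near the threshold, since 6 of 18 alternatives ended it. Those were the fit of all 14 arrays (adjusted p = 0.0837), leaving out parental replicate 2 (0.0717) or 4 (0.106) and leaving out the selected array of R1 (0.0544), R3 (0.0739) or R5 (0.0530). The signals lay close to the background mark.

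CXCL1, a second neutrophil chemokine, which shares the receptor CXCR2 with CXCL8, read 11.17, 10.28, 9.76, 10.27 and 10.79 in the selected arrays. The stable arrays read 10.75, 10.66, 9.64, 10.10 and 9.51, and the parental ones 10.77, 11.22, 11.08 and 11.18. All 5 stable arrays were below the lowest parental array, though R1 only narrowly, a pattern that 1.42% of all genes showed in that direction. In selected cells R1 and R7 overlapped the parental arrays. Neither comparison passed: the difference was -0.61 for selected (SE 0.23, limma adjusted p = 0.148) and -0.93 for stable cells (SE 0.25, limma adjusted p = 0.405), and both used the same 4 parental arrays. Without the selected array of R1 the first difference was called, at -0.79 (adjusted p = 0.0287).

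CCL20, a chemokine for CCR6-bearing lymphocytes and dendritic cells, stayed between 5.79 and 5.96 in selected, 5.62 and 5.88 in stable and 5.66 and 5.89 in parental arrays. The groups overlapped throughout. Its difference between selected and parental cells was 0.10, with a 95% confidence interval of -0.058 to 0.26. At signals below the background mark a change may not be visible on these arrays.

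TNFAIP3 and NFKBIA encode brakes of the pathway. TNFAIP3, also called A20, is a ubiquitin-editing enzyme that shuts off signalling to the IkB kinases. It read 8.84, 8.60, 8.15, 8.16 and 8.83 in the selected arrays, 8.40, 10.62, 9.07, 8.73 and 8.91 in the stable arrays and 8.85, 9.43, 8.75 and 9.32 in the parental arrays. Selected arrays lay in the lower part of the parental range or below it, and the stable array of R3 exceeded every other array by more than 1 log2 unit. The difference of selected from parental cells was -0.57 (SE 0.19) and did not pass (limma adjusted p = 0.0944). It passed with quantile normalization (-0.63, adjusted p = 0.0348), with array weights (-0.64, adjusted p = 0.0389) and with the olfactory receptor mean added to the model (-0.68, adjusted p = 0.00323).

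NFKBIA encodes IkB-alpha, the inhibitor that is degraded on stimulation and made anew by NF-kB. The selected arrays gave 11.05, 10.88, 10.25, 10.47 and 11.05, the stable arrays 10.90, 11.56, 10.93, 10.72 and 10.66, and the parental arrays 10.93, 11.69, 10.47 and 11.67. The parental arrays spread more widely than the selected or the stable ones, and all groups overlapped. The difference was -0.45 (SE 0.25, limma adjusted p = 0.377) for selected and -0.24 (SE 0.26, limma adjusted p = 0.999) for stable cells. Both sizes depended on single arrays. For selected cells the difference was -0.28 without parental replicate 2, -0.29 without replicate 4 and -0.69 without replicate 3. For stable cells it was -0.069, -0.076 and -0.48 without those replicates, and -0.39 without the stable array of R3. None of these passed.

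RELB and NFKB2, whose p52 product partners RelB in the non-canonical arm of the pathway, moved little. NFKB2 ran from 8.82 to 9.04 in selected, 8.89 to 9.56 in stable and 8.81 to 9.44 in parental arrays, and its selected values all lay inside the parental range. The difference of selected from parental cells was -0.23 with a 95% confidence interval of -0.47 to 0.019. RELB ran from 8.28 to 8.63 in selected, 8.26 to 8.72 in stable and 8.33 to 8.65 in parental arrays. Its difference was -0.093 with an interval of -0.29 to 0.11. Neither passed (limma adjusted p = 0.295 for NFKB2 and 0.678 for RELB).

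**Figure D2:**
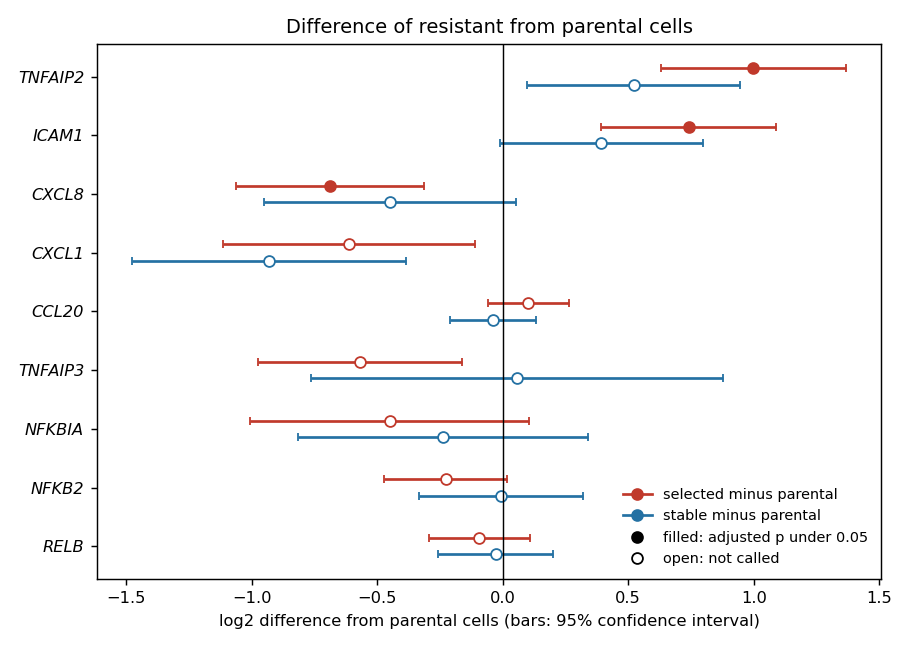
Log2 difference (horizontal axis) of selected cells (red) and stable cells (blue) from parental cells for each member, with 95% confidence intervals from limma; filled points have an adjusted p under 0.05. TNFAIP2 at 0.998, ICAM1 at 0.74 and CXCL8 at -0.69 in selected cells were the called differences. CXCL1, CXCL8, NFKBIA, NFKB2 and RELB lay below 0 in both states.

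Of the stable against parental comparison, which asks what remained after growth without inhibitor, no member was called by limma. An unadjusted p under 0.05 was reached by 2 of 9 members, TNFAIP2 and CXCL1, and by 6.09% of all genes. The adjusted threshold was passed by 0.00544% of all genes. TNFAIP2 averaged 10.08 ± 0.39 (SD, n = 5) in stable cells, a difference of 0.52 from parental cells (SE 0.19, limma adjusted p = 0.681), and ICAM1 averaged 9.05 ± 0.41, a difference of 0.39 (SE 0.18, limma adjusted p = 0.832) that was 0.22 without the stable array of R3 (adjusted p = 0.842). CXCL8 differed by -0.45 (SE 0.23, limma adjusted p = 0.857). The wide intervals in the plot of differences from parental cells do not show that these genes had returned to parental levels. The 2 comparisons with parental cells share the 4 parental arrays, so like signs in them are not separate evidence.

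Selected against stable compares the 5 sublines with and without the inhibitor. No member was called by limma, against 2.16% of all genes, and 1 of 9, TNFAIP2, had an unadjusted p under 0.05, against 15.3% of all genes. With subline as a block, under which 4.92% of all genes were called, the count of members stayed at 0. TNFAIP2 was higher in the selected array of 4 of 5 sublines, by 0.48 on average (SE 0.20, limma adjusted p = 0.265, and 0.0938 with the block). ICAM1, CXCL1 and CCL20 were also higher in 4 of 5 sublines, and TNFAIP3 and NFKB2 were higher in 1 of 5. For CXCL1 the average of 0.32 (SE 0.29) became -0.020 with the olfactory receptor mean added to the model, and this background mean was lower in the selected than in the stable array of each subline.

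No member passed the test between sublines (limma F test on all 10 resistant arrays, adjusted for selected or stable state), which called 0.12% of all genes. CXCL1 alone had an unadjusted p under 0.05, as did 15.8% of all genes. Its mean over both states lay -0.10 from the parental mean in R1 and -0.60 in R3, and -1.36, -0.88 and -0.91 in R5, R6 and R7, a range of 1.26 between sublines (limma adjusted p = 0.256). TNFAIP2 lay above the parental mean by 1.22 in R1, the most, by 0.85 and 0.74 in R3 and R6, and by 0.49 and 0.50 in R5 and R7 (limma adjusted p = 0.324).

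**Figure D3:**
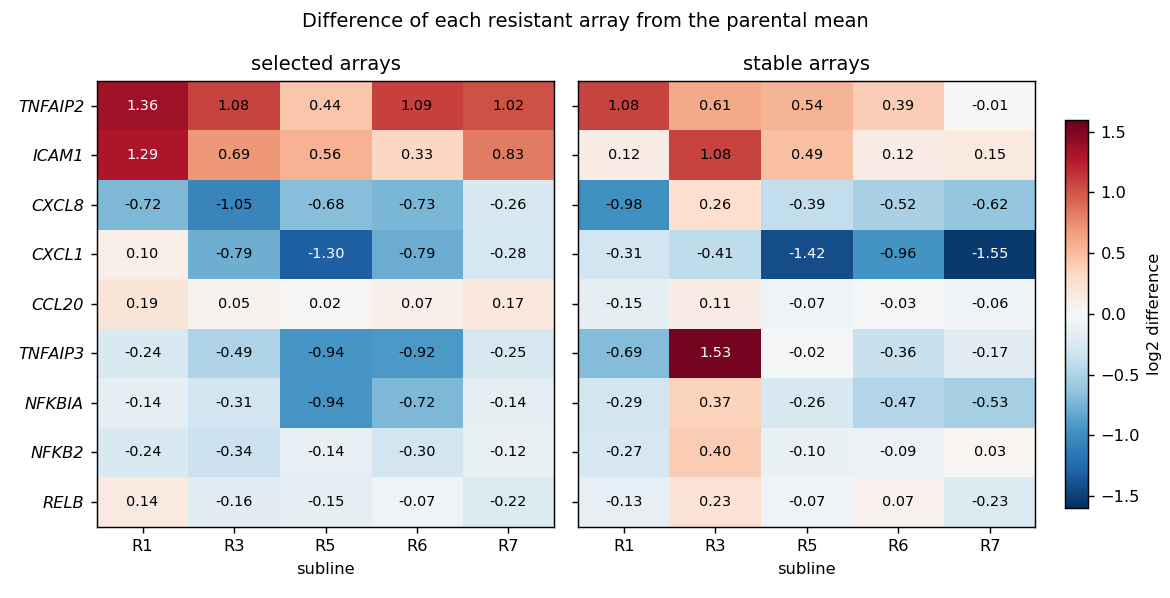
Log2 difference of each selected array (left) and each stable array (right) from the mean of the 4 parental arrays, by member (rows) and subline (columns); red is above and blue below the parental mean. The stable R3 array lies above the parental mean in 8 of 9 members, up to 1.53 for TNFAIP3, and the 4 selected arrays of R3, R5, R6 and R7 lie below it in 6 of 9.

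Among stable cells 1 array stood apart for these genes. The stable array of R3 was the highest of the 5 stable arrays in 7 of 9 members, TNFAIP3, ICAM1, NFKBIA, NFKB2, RELB, CXCL8 and CCL20, whereas it was highest for 19.2% of all genes. It was singled out after the values were seen, so the share of all genes is no test of it. Within R3 the difference of selected minus stable was -2.02 for TNFAIP3, -1.32 for CXCL8, -0.75 for NFKB2 and -0.68 for NFKBIA. ICAM1, RELB, CXCL1 and CCL20 gave -0.39, -0.39, -0.38 and -0.059, and TNFAIP2 alone went the other way, at 0.47. The remaining 4 sublines ran from -0.92 to 0.45 for TNFAIP3, -0.29 to 0.37 for CXCL8 and -0.21 to 0.029 for NFKB2. For NFKBIA they ran from -0.68, in R5, to 0.38. The olfactory receptor mean of the stable R3 array, 6.39, was inside the stable range, and the part of background was not tested. The 9 members are read from 1 array, so they are not separate observations of it. Without that array TNFAIP3 differed between stable and parental cells by -0.31, where it was 0.06 with it, and neither passed (limma adjusted p = 0.940 and 0.999). In the selected group R1 was the highest of 5 in 7 of 9 members and in 25.7% of all genes, and its olfactory receptor mean of 6.06 was the lowest of all arrays. R1 was likewise picked after the values were seen, and the part of background in this was not tested.

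The parental arrays were not uniform either. Replicates 2 and 4 both lay above replicates 1 and 3 in 8 of 9 members, all but CCL20, and in 22.6% of all genes. That grouping of replicates was chosen after the values were seen, so the share of all genes is no test of it. For ICAM1 the gap was narrow, with 8.73 in replicates 2 and 4 against 8.72 in replicate 1. NFKBIA showed the pattern most plainly, with 11.69 and 11.67 against 10.93 and 10.47. The difference of CXCL8 between selected and parental cells was -0.53 without replicate 2 and -0.67 without replicate 4, where it was -0.69 with both. The olfactory receptor mean was 6.16 and 6.40 in replicates 2 and 4 and 6.42 and 6.71 in replicates 1 and 3. Its part in the pattern was not tested.

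The wider pathway was read through lists of ligands, receptors, adaptors and kinases, subunits, inhibitors, further targets and further chemokines, which hold 157 measured genes besides the members. In selected against parental cells 8 of them were higher and 3 lower, 7.01% in all, close to the 6.92% of all genes. At an unadjusted p under 0.05 that comparison gave 35 of the 157, against 20.3% of all genes. In stable against parental and in selected against stable none was called by limma, against 0.00544% and 2.16% of all genes. Their counts at the unadjusted threshold were 14 and 21 of the 157, against 6.09% and 15.3% of all genes. The stable array of R3 was the highest stable array in 58 of the 157, against 19.2% of all genes. It had been singled out after values were seen, so this is no test of it. By list it was highest in 4 of 13 ligands, 6 of 20 receptors, 15 of 29 adaptors and kinases, 10 of 20 inhibitors, 4 of 5 subunits and 21 of 43 further targets, the inhibitors and subunits counted with their members. It was highest in 2 of 31 further chemokines and 0 of 11 leukocyte markers, and TNF and PLAU read 8.42 and 11.30 in it.

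Among the 13 measured ligands, TNF, a cytokine that stimulates the pathway, was called lower and TNFSF10, the death ligand TRAIL, higher in selected cells, both at signals near or under the background mark. TNF read 6.40, 6.74, 6.77, 6.62 and 6.50 in the selected arrays of R1, R3, R5, R6 and R7, against 7.48, 6.97, 7.04 and 7.21 in parental arrays. No selected array reached the lowest parental one, and the difference was -0.57 (SE 0.11, limma adjusted p = 0.0136). In the stable arrays TNF read 6.78, 8.42, 7.22, 6.74 and 7.17, with R3 again the highest. All TNF signals in selected and parental arrays lay under the background mark of 7.76, so the size of the difference is uncertain. The call was lost in 1 fit of all 14 arrays (adjusted p = 0.245) and without parental replicate 4 (adjusted p = 0.0511). TNFSF10 read 7.99, 7.64, 7.20, 7.87 and 8.09 in selected arrays, against 7.23, 7.11, 7.06 and 7.13 in parental arrays, with the R5 array inside the parental range. The difference was 0.62 (SE 0.15, limma adjusted p = 0.0323), and it lost its call in 9 of 17 alternatives, with adjusted p up to 0.0928. All parental arrays and the selected arrays of R3 and R5 lay under the background mark, which leaves its size uncertain.

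Of 20 receptors 1 rose and 1 fell. TLR3, the endosomal receptor for double-stranded RNA, read 8.14, 8.05, 8.13, 8.10 and 8.46 in selected arrays, against 7.33, 7.11, 7.43 and 7.08 in parental arrays. The groups did not overlap, and the difference was 0.94 (SE 0.10, limma adjusted p = 0.000935). The parental signals lay under the background mark and the selected ones above it, so the size of the difference is uncertain. LTBR, the lymphotoxin receptor that feeds the non-canonical arm through NFKB2 and RELB, read 9.90, 9.66, 9.67, 9.53 and 9.90 in selected arrays and 10.39, 10.18, 10.06 and 10.14 in parental arrays, again without overlap, a difference of -0.46 (SE 0.099, limma adjusted p = 0.0184). That call was lost without parental replicate 1 (adjusted p = 0.0578) or 4 (0.0519). Among 29 adaptors and kinases, TAB3, a subunit of the TAK1 kinase complex, rose by 0.39 and BIRC2, a ubiquitin ligase of receptor complexes, by 0.46, and none fell (limma adjusted p = 0.0236 for TAB3 and 0.0375 for BIRC2). TAB3 lost its call in 6 of 18 alternatives, with adjusted p up to 0.0860, and BIRC2 in 9 of 18, with adjusted p up to 0.111. Of the 29 adaptors and kinases 13 had an unadjusted p under 0.05 by limma, against 20.3% of all genes. Receptors gave 5 of 20 and ligands 3 of 13 at that threshold. None of the 5 subunits passed by limma, nor did any at an unadjusted p under 0.05, and RELA differed by 0.14 (SE 0.099). None of the 20 inhibitors passed by limma, with 2 at an unadjusted p under 0.05, TNFAIP3 and TAX1BP1, an A20 partner, at 0.41 (SE 0.15, limma adjusted p = 0.123).

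Further target genes moved both ways, with 4 of 43 called higher and 1 lower, against 5.03% and 1.89% of all genes. At an unadjusted p under 0.05 by limma there were 11 of the 43, against 20.3% of all genes. PLAU, the urokinase that activates plasmin, rose by 1.07 (SE 0.19, limma adjusted p = 0.00732), with 10.99, 10.27, 10.24, 10.74 and 11.17 in selected arrays against 9.86, 9.65, 9.35 and 9.57 in parental arrays. No selected array lay within the parental range. The epithelial transcription factor ELF3 rose by 0.63, the ephrin EFNA1 by 0.51 and the macrophage growth factor CSF1 by 0.39, and KLF6, a zinc finger factor, fell by 0.38 on the log2 scale. Adjusted p for these 4 lay between 0.0142 and 0.0358, and each lost its call in some of the 18 alternatives. KLF6 lost it in 9 (adjusted p up to 0.203), ELF3 in 6 (up to 0.151), CSF1 in 4 (up to 0.0531) and EFNA1 in 1 (0.0594). None of 31 further chemokines was called by limma, with 2 at an unadjusted p under 0.05. These were the membrane-bound chemokine CXCL16, at 0.58 (SE 0.17, limma adjusted p = 0.0630), and the monocyte chemokine CCL2, at -0.33 (SE 0.097, limma adjusted p = 0.0670), with every CCL2 signal under the background mark. CXCL2, the close relative of CXCL1, read 8.73, 8.10, 7.47, 8.03 and 8.44 in selected, 7.98, 7.90, 7.49, 7.48 and 7.40 in stable and 8.14, 9.30, 8.39 and 9.09 in parental arrays. Its stable arrays all lay below the parental ones, as those of CXCL1 did, and its difference from parental cells was -1.08 in stable (SE 0.23, limma adjusted p = 0.251) and -0.58 in selected cells (SE 0.27, limma adjusted p = 0.257). The chemokine receptors CXCR1, CXCR2 and CCR6 differed between selected and parental cells by -0.035, -0.050 and -0.030, all with signals below the background mark.

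**Figure D4:**
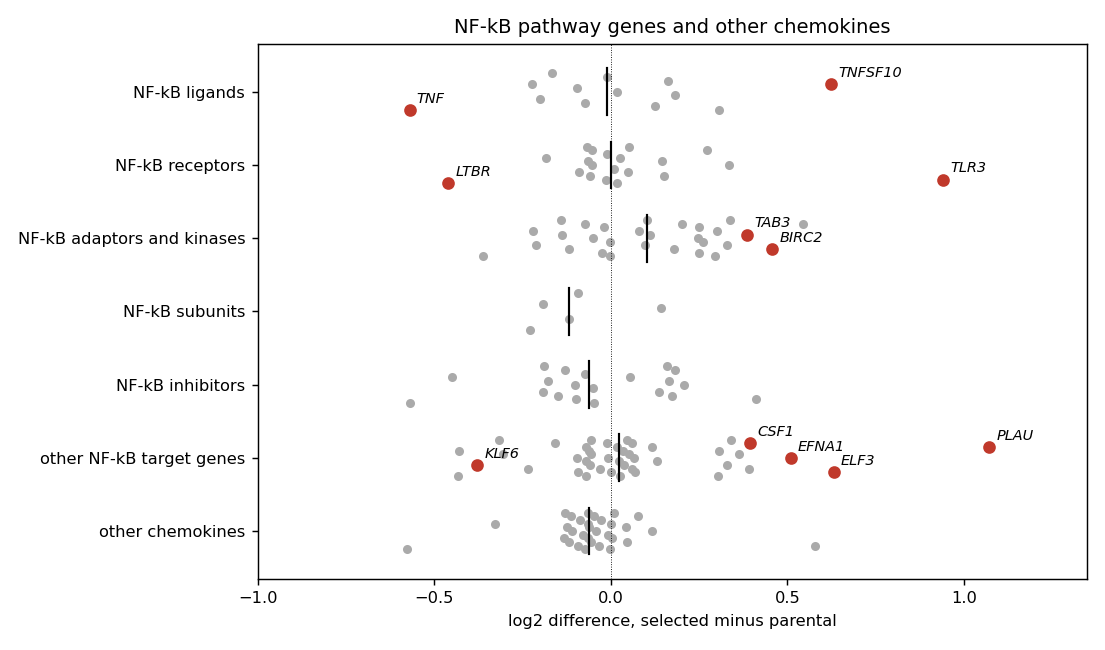
Log2 difference of selected from parental cells (horizontal axis) for each measured gene of 7 pathway lists (rows); red points with names have a limma adjusted p under 0.05, grey points do not, and black lines are list medians. List medians lay between -0.12 and 0.10, and single genes such as PLAU, TLR3 and TNF stood away from them. TNFAIP3, NFKBIA, NFKB2 and RELB appear in the lists of inhibitors and subunits.

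Profiles most like those of the 3 called members were found by the root mean square difference of log2 signals over the 14 arrays, each gene centred on its own mean. TNFAIP2 was nearest to TXNDC16 at 0.17, ZBTB41 at 0.21 and ATG4A at 0.21, where its own deviation around its mean was 0.50. ICAM1 was nearest to MALT1 at 0.18, SKA1 at 0.18 and ELF4 at 0.19, with a deviation of 0.42. CXCL8 was nearest to PTX3 at 0.245, GABRE at 0.249 and KAT6B at 0.253, with a deviation of 0.43. The distances are descriptions over arrays that share their groups.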

How the data were processed

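RNA was measured in 14 arrays of cell line samples. The values are those the authors deposited as a log2 signal table, 1 row for each probe set; the base was taken from their range, 4.34 to 14.9. How background was corrected and how arrays were normalized and probes summarised is not given in these sources, and may shift differences between arrays. Of 32295 rows 19148 named 1 gene in the platform annotation. Symbols were updated through RefSeq (GRCh38.p14), and a gene with several rows was read from the one of highest mean, giving 18398 genes. Array medians lay between 7.54 and 7.68.

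Groups follow the titles. Comparisons used limma 3.58.1 in R 4.3.3 (lmFit, eBayes, two-sided) on the arrays of the 2 groups, with Benjamini-Hochberg adjustment over all genes at 0.05. Sublines were compared by an F test. Selected and stable arrays are paired by subline through their titles, and deviations from group means correlated between paired arrays, across genes, at 0.636 for subline R1, 0.0497 for R3, 0.371 for R5, 0.546 for R6 and -0.468 for R7. Simulated data held 18398 independent genes, 50 of them changed at each size, with each gene's variance averaged over the 3 groups. Of changes of 1 log2 unit, 84% were recovered for selected against parental and 88% for stable against parental. The share was 86% for selected against stable and 40% between sublines. Real stable arrays spread more in some genes, such as TNFAIP3, with an SD of 0.86 against 0.34 in parental arrays. Recovery in the real arrays may be lower and was not measured.

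All members were described. Of the other lists, the genes named were those called in a group comparison, or else up to 3 of smallest p for selected against parental and up to 3 for selected against stable, and CXCR1, CXCR2 and CCR6. For each called member the 3 genes nearest in profile were named, without uncharacterised, small RNA, olfactory receptor or keratin-associated genes. Not every gene this allowed is printed, and that choice was made with values known. Members and lists were chosen with earlier results of these data known. Alternatives were a trended and robust variance prior, array weights, quantile normalization, centring arrays on their medians, dropping genes under the 40th percentile of mean signal, averaging a gene's rows, the olfactory receptor mean as a covariate, 1 fit of all 14 arrays, the subline block, leaving out R7 and leaving out each array. For comparisons with parental cells, leaving out R7 and leaving out its array were the same fit and were counted separately. Averaging rows left the signals of the members unchanged, since each had 1 row. Figures were drawn with matplotlib 3.10.9.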

Additional observations from a re-analysis of the deposited data

Results flagged for a closer look

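In 69 groups of arrays, those of the 9 members and of 14 other genes from the lists, 6 held an array set apart from its group by Dixon's test, where chance flags about 1 in 20. ICAM1 read 8.44 in parental replicate 3, with the other parental arrays between 8.72 and 8.73. Of the 6, 2 were in the stable array of R3, where TNF read 8.42 and KLF6 read 9.69. TLR3 read 8.46 in the selected array of R7 and 8.30 in the stable array of R5. CCL2 read 7.33 in the stable array of R7. For TNFAIP3 and NFKBIA the stable array of R3 came close, with a gap over range of 0.697 and 0.703 where 0.71 is the critical value.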

How the results depend on the processing

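Of the members, 3 were called for selected against parental and 0 for each further comparison. With the olfactory receptor covariate 6 were called for selected against parental and 1, TNFAIP2, for stable against parental; with array weights 1, CXCL1, was called for stable against parental and 1, CXCL1, between sublines. Leaving out single arrays gave 1 to 3 for selected against parental and 0 for each further comparison; without parental replicate 4 only TNFAIP2 was called. The subline block left 0 members called for selected against stable. Genes called for selected against parental numbered 1273 (926 higher, 347 lower), 989 higher and 721 lower with quantile normalization, 2318 with the olfactory receptor covariate, 621 without subline R7 and 517 to 1343 without single arrays. For stable against parental, 1 gene was called, 5 with trended and robust variance, 2 with quantile normalization or median centring, 4 with the filter, 286 with array weights, 75 with the covariate, 8 in 1 fit of all arrays and 1 to 26 without single arrays. For selected against stable, 397 were called (284 higher, 113 lower), 313 higher and 267 lower with quantile normalization, 177 higher and 115 lower with median centring, 1480 with array weights, 680 in 1 fit of all arrays, 906 with the subline block, 0 by limma without R7 (1756 at an unadjusted p under 0.05) and 86 to 962 without single arrays. Between sublines, 22 were called, 584 with trended and robust variance, 0 by limma with quantile normalization (2378 at an unadjusted p under 0.05), 8 with median centring, 1389 with array weights, 0 with the covariate (798 at an unadjusted p under 0.05), 305 without R7 and 0 to 410 without single arrays. The covariate fits also called TNFAIP3, NFKBIA and CXCL1 for selected against parental. The sign of uncalled differences turned for NFKB2 in stable against parental cells (-0.0072), at 0.015 with quantile normalization, 0.012 with median centring, 0.028 with the covariate and -0.12 to 0.085 without single arrays. It turned for TNFAIP3 (0.058), at -0.066 with array weights and -0.31 to 0.24 without single arrays, for RELB (-0.029), at 0.023 without R7 and -0.093 to 0.024 without single arrays, and for CCL20 (-0.039), at -0.077 to 0.0027 without single arrays. CXCL1 in selected against stable cells (0.32) turned to -0.020 with the covariate. The causes were not tested, and where arrays were left out the fits also held fewer arrays. Signal near background limits CCL20, CXCL8, TNF, TNFSF10, TLR3 and CCL2.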
